A study of Mus musculus with 4 samples.

Results

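The genes described here are 39 that carry glucose and other nutrients into cell metabolism: 19 glycolytic enzymes, 5 genes at the entry of pyruvate into mitochondria or regulating the pathway, 6 enzymes of the pentose phosphate pathway and 9 transporters of glucose, lactate or amino acids. Each gene was read through the probe sets annotated to it alone, and by the brightest of these where there were several. Of the 39, 34 had such a probe set, among 12393 genes named in this way on the array, and 31 were bright enough to be tested. Hk3, Gpi1, Eno1 and G6pdx had no probe set that names them alone and are not analysed here. Gapdh was read only by control probe sets of the array, and Eno2, Slc16a3 and Slc7a1 lay below the filter on dim signals.

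RNA from CD4 cells was compared between 2 arrays of wild type mice (+/+) and 2 arrays of sanroque mice (san/san). Sanroque is a recessive line from a mutagenesis of C57BL/6 males with ENU, found through antinuclear autoantibodies; the gene hit is Rc3h1, whose product Roquin-1 binds mRNAs and limits their lifetime. The labels give neither the ages of the mice on the arrays nor whether every array holds another mouse, so a p-value here covers array-to-array spread only, possibly just technical spread. Array 1 of each genotype was hybridised on the same day, and array 2 of each on another day, so each difference can also be read within a day. The experiment information of both number 1 arrays speaks of sorted T cells. For wild type array 2 it holds CBA, left unexplained by the labels. If this names a mouse strain, strain and genotype cannot be told apart on day 2. The wash protocol is on record for day 1 but not for day 2.

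Glycolysis splits glucose to pyruvate in the cytosol, and lactate dehydrogenase turns pyruvate into lactate. The pentose phosphate pathway branches off after the hexokinase step and yields NADPH and ribose for nucleotides. Resting T cells take up little glucose; when they are activated they raise glucose and amino acid transport and the enzymes of both pathways, in large part through the transcription factors MYC and HIF-1.

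The 4 arrays had trimmed mean signals of 99.59 to 99.97, a common scale set before deposit. The ratio of the 3′ to the 5′ control probe set, a measure of RNA integrity, lay between 1.06 and 1.18 for beta-actin and between 0.701 and 0.826 for Gapdh. Wild type array 2 stood apart in the 5′ control for 18S ribosomal RNA, at 1992.8 against 35.4 to 107.4 on the other arrays. The T cell markers Cd4, Cd3d, Cd3e, Cd3g and Cd28 were bright in both genotypes, with summed signals of 7035.5 and 7657.1 in wild type and 6695.7 and 7319.1 in sanroque, and Lck had no probe set of its own. Other markers differed between the genotypes. Of 7 tested neutrophil markers 3 rose (Ngp, S100a8 and S100a9), and the list summed to 527.2 and 502.6 in wild type against 1352.3 and 1415.4 in sanroque. The monocyte list, of which Lyz2 alone of 4 tested markers rose, summed to 690.1 and 774.3 against 1420.5 and 1327.0. Much of that change came from Lyz2 (201.1 and 210 against 642.6 and 637.6). Csf1r (0.50) and Itgam (0.39, dim and below the filter) also read higher without overlap, while Cd14 (0.15) and Adgre1 (0.48) overlapped between the genotypes. The red cell list summed to 1015.3 and 1051.3 against 1513.3 and 1692.1, and 0 of its 3 tested markers passed. Of 8 tested cell cycle genes 5 rose, with list sums of 1500.9 and 2349.3 against 2112 and 2418.2. Most of each sum came from Pcna, which overlapped between the genotypes (1243.7 and 2125.5 against 1425.8 and 1741.7, a difference of -0.05). Of 5 immediate early genes 4 fell (Fos, Jun, Junb and Dusp1), with list sums of 6526.6 and 7632.5 against 1002.9 and 1038. Egr1 of that list went the other way without overlap (395.8 and 391.1 against 585.7 and 509.2, a difference of 0.47) and did not pass. The red cell globin gene Hba-a1 was dim on all arrays, between 4.4 and 26.2. B cell markers summed to 948.2 and 1011.7 against 865.3 and 968.7, CD8 T or NK cell markers to 282.3 and 253.1 against 336.2 and 318.4 and platelet markers to 130.3 and 116.1 against 119.2 and 80.3, with none past the test. With the day as a block 6 neutrophil markers, 2 monocyte markers and all 3 tested red cell markers passed, against 6.28% of all tested probe sets. Camp and Lcn2 among these had wild type means of 10.85 and 8.45, under the filter of 21.3. They were thus tested only because of their sanroque signals. Of the CD8 T or NK list Nkg7 passed with the block (76.2 and 73.1 against 126.9 and 139.9, a difference of 0.79, limma adjusted p = 0.119, 0.00516 with the block). Klrd1 of that list read lower without overlap (104.9 and 87.4 against 85.1 and 72.8, -0.26), and Cd8a (0.30) and Cd8b1 (0.13) read higher. No marker of these lists was at 0 on any array. The part of these markers in the members' values was not tested. In RNA from a cell pool, fewer cells of a type and less RNA per cell cannot be told apart.

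The labels state the aim as an expression profile of mutant against normal CD4 cells. None of the 31 tested members passed (limma, Benjamini-Hochberg adjusted p of 0.05 over all 13580 tested probe sets), where 1.06% of all tested probe sets did, 0.67% higher and 0.39% lower in sanroque. At an unadjusted p of 0.05, 5 of 31 members passed, against 9.89% of all probe sets: Hif1a and Slc16a1 read higher in sanroque, and Aldoa, Slc3a2 and Slc38a2 lower. Limma with the day as a block called 2 of 31, Hif1a higher and Aldoa lower, a share near the 6.28% of all probe sets called in that fit. Without wild type array 2 the count of members past the test was 0 as well.

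The limits of what could be seen follow from the intervals. Like the p-values, these cover array-to-array spread only, possibly just technical spread, and not the spread between mice. The standard error of a member's log2 difference lay between 0.167 and 0.424, with a median of 0.192. For 30 of the 31 members the 95% interval of the difference lay within a log2 change of 1 in either direction. The same held for 9983 of all 13580 tested probe sets. The exception among the members was Hk2, whose interval ran from -0.09 to 1.78. Differences are given on the scale of log2(signal + 6), sanroque minus wild type, which understates changes of dim probe sets.

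**Figure D1:**
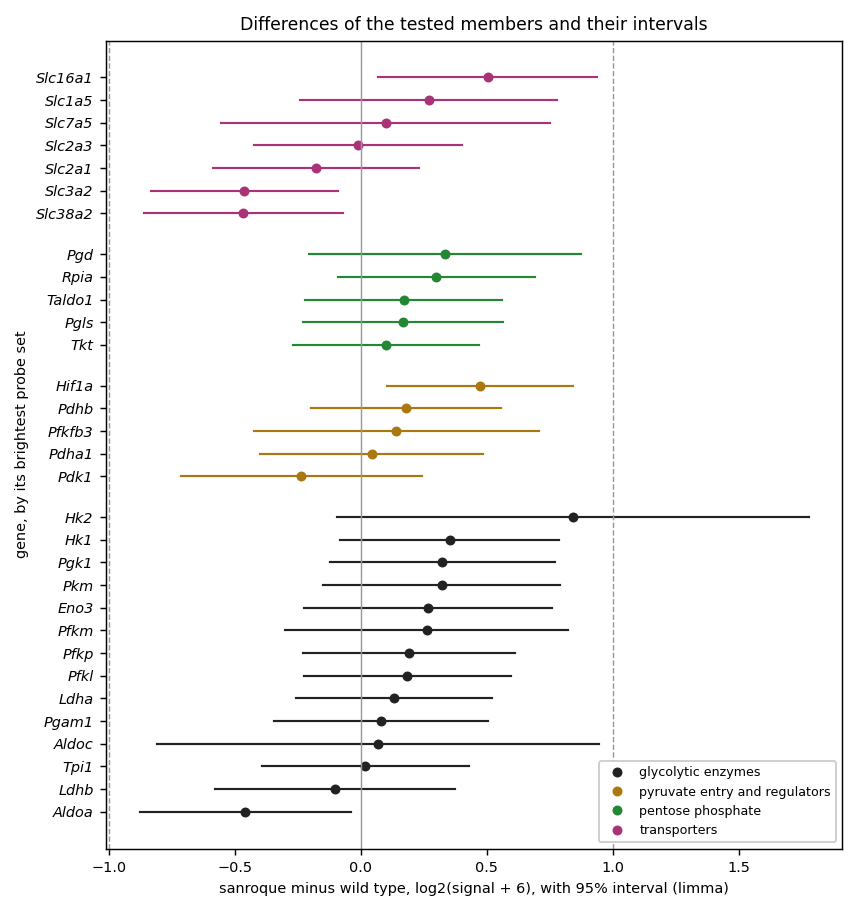
Log2 difference between sanroque and wild type (x axis, log2(signal + 6)) for each of the 31 tested members (y axis, by role), with the 95% interval from limma as a line and dashed lines at a difference of -1 and 1. All intervals but that of Hk2 lie between the dashed lines, and those of Aldoa, Hif1a, Slc16a1, Slc3a2 and Slc38a2 leave out 0.

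By sign, 24 of 31 members had a positive difference and 7 a negative one, with a median of 0.17, while 52.1% of all tested probe sets were positive, with a median of 0.01. With each array centred on its median 20 of 31 members were positive, and 39.4% of all probe sets, so the count of positive signs depends on the scaling. Of the 31 members, 27 were positive without wild type array 1, 20 without wild type array 2, 24 without sanroque array 1 and 19 without sanroque array 2. Of all tested probe sets 55%, 47.9%, 49.5% and 54.7% were positive in these fits, in the same order. The arrays of both genotypes did not overlap for 15 members, 11 higher and 4 lower in sanroque, against 20.9% of all tested probe sets higher and 17.7% lower. The same sign was seen on both days for 24 of 31 members, and for 8401 of all 13580 tested probe sets.

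**Figure D2:**
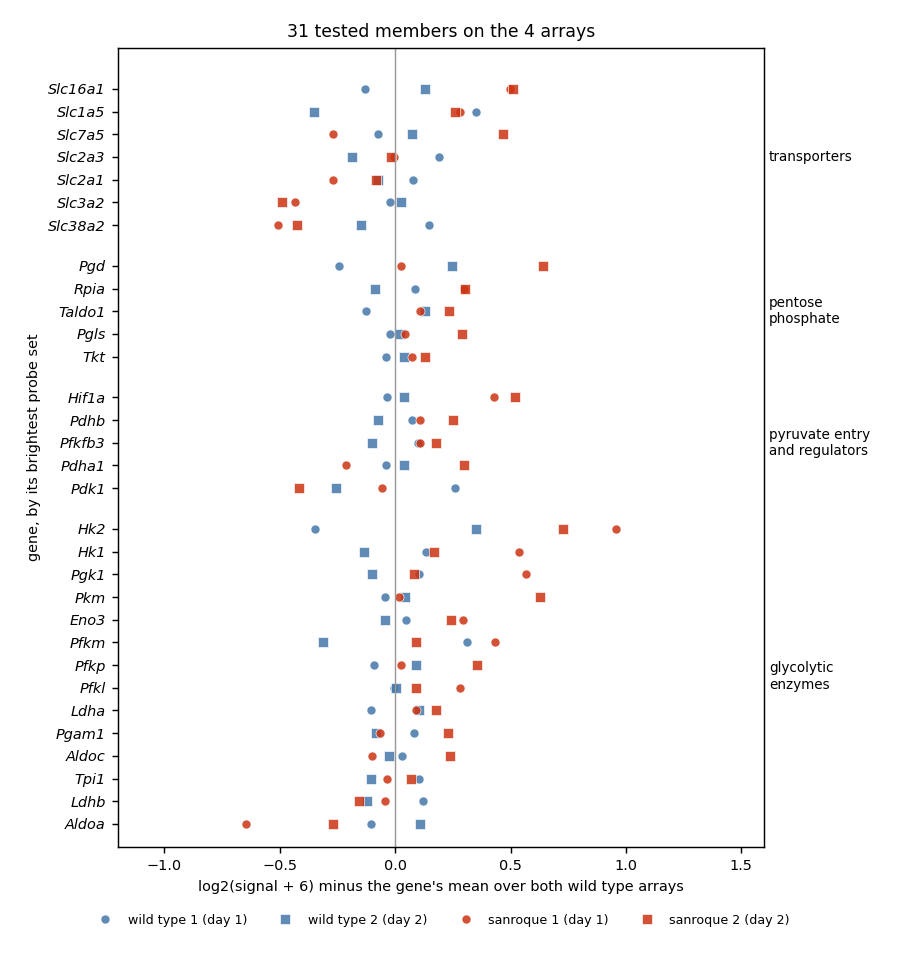
Each of the 31 tested members (y axis, grouped by role) on each array, as log2(signal + 6) minus the gene's mean over both wild type arrays (x axis); blue marks are wild type, red marks sanroque, circles day 1 and squares day 2. Both sanroque marks lie to the right of both wild type marks for 11 genes, among them Hk2, Hif1a and Slc16a1. They lie to the left for 4, Slc2a1, Slc3a2, Slc38a2 and Aldoa. In the remaining genes the marks of the genotypes overlap.

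Of the 19 glycolytic enzymes 14 were tested and none passed by limma. An unadjusted p under 0.05 was seen for 1 of the 14, against 9.89% of all probe sets. The median difference was 0.19, with 12 positive and 2 negative, where 52.1% of all tested probe sets were positive. Hexokinases trap glucose in the cell by phosphorylation. Hk1, the widely expressed form, read 270.6 and 223.4 in wild type and 359 and 277.4 in sanroque, so the genotypes did not overlap, though wild type array 1 came within a few units of sanroque array 2. Its difference was 0.35 (standard error 0.196, limma adjusted p = 0.626), and 0.17 without sanroque array 1. A dimmer Hk1 probe set gave a larger one, with 106.8 and 90.5 in wild type and 143.1 and 223.1 in sanroque, a difference of 0.82 (adjusted p = 0.181, 0.00439 with the day as a block). That probe set differed by 0.40 on day 1 and 1.25 on day 2, where sanroque array 2 was the highest value. Hk2, the inducible hexokinase of activated cells, was dim: 12 and 23.2 in wild type, 38.5 and 32 in sanroque, with a difference of 0.84 (standard error 0.424, adjusted p = 0.57). The wild type mean of Hk2, 17.6, was under the filter of 21.3, so this gene was tested only because of its sanroque signals.

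Phosphofructokinase commits sugar to glycolysis, and its subunits come from Pfkl, Pfkp and Pfkm. Pfkl read 139.8 and 140.8 in wild type and 171.7 and 149.7 in sanroque, a difference of 0.19, but its other probe set had -0.10. Pfkp read 207.2 and 236.3 against 225.3 and 284.7 (0.19), and Pfkm 102.2 and 64.3 against 111.6 and 86.9 (0.26), with overlapping genotypes in both. The difference of Pfkp was 0.025 without sanroque array 2 and 0.098 without wild type array 1. The subunit genes thus shared a positive difference by their brightest probe sets, none larger than its interval (limma adjusted p = 0.843 to 0.853).

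Aldolase cleaves fructose bisphosphate, and Aldoa was the glycolytic gene with the largest negative difference. It read 901.3 and 1045.9 in wild type and 618.5 and 803.6 in sanroque, where every sanroque value lay below every wild type value. The difference was -0.46 (standard error 0.19, limma adjusted p = 0.455), -0.54 on day 1 and -0.38 on day 2, and -0.27 without sanroque array 1. With the day as a block it passed narrowly (adjusted p = 0.0454), against 2.69% of all probe sets called lower in that fit. The other 3 Aldoa probe sets, read on the same arrays, were lower too, with differences of -0.40, -0.37 and -0.30. None of these passed with the block, and the genotypes overlapped in the last. Aldoc, the aldolase of brain, stayed near the filter at 24.8 and 23.6 against 22.2 and 29.6.

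Triose phosphate isomerase and phosphoglycerate mutase had small differences. Tpi1 read 180.2 and 155 in wild type and 162.9 and 175.8 in sanroque (0.02, interval -0.39 to 0.43). Pgam1 read 182 and 161.5 against 163.5 and 201.9 (0.08, interval -0.34 to 0.51). The signs of Tpi1, Pgam1 and Aldoc turned negative with each array centred on its median. Eno3, the muscle enolase, had 63.8 and 59.5 against 76.9 and 73.9, without overlap, and a difference of 0.27 (limma adjusted p = 0.788). Eno2, the neuronal enolase, lay between 8.1 and 12.4 on all arrays.

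Gapdh, often taken as a constant reference in expression assays, could be read on 3 control probe sets for parts of its mRNA, which were not in the test. The brightest, at the 5′ end, read 1855.6 and 2034 in wild type and 2062.4 and 2169 in sanroque, a difference of 0.12. The middle one had 0.20 and the 3′ one 0.19. When these probe sets were added to the fit, an alternative chosen after seeing the data, none passed (limma adjusted p = 0.819 to 0.911). A probe set annotated to Gapdh and other genes together gave 0.22 (limma adjusted p = 0.851).

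The later steps make ATP, pyruvate and lactate. Pgk1, the phosphoglycerate kinase, read 809.1 and 701.7 in wild type and 1120.3 and 796.5 in sanroque. Sanroque array 1 was the high value there, the genotypes overlapped, and without that array the difference was 0.079. Its 3 probe sets gave 0.32, 0.33 and 0.30, the closest accord of any member with 3 or more (limma adjusted p = 0.681 for the brightest). Pkm, the pyruvate kinase, read 344.2 and 366.5 against 359.6 and 551.5 (0.32, adjusted p = 0.705), where sanroque array 2 alone stood out; without that array the difference was 0.018. Ldha, which makes lactate, was bright and nearly level, at 1153.1 and 1331.5 against 1317.8 and 1401.4, a difference of 0.13 with an interval of -0.26 to 0.52. Ldhb, the form favouring the reverse reaction, read 92.8 and 77.6 against 82.1 and 75.5, and its 4 probe sets all had small negative differences, of -0.13 to -0.0036.

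**Figure D3:**
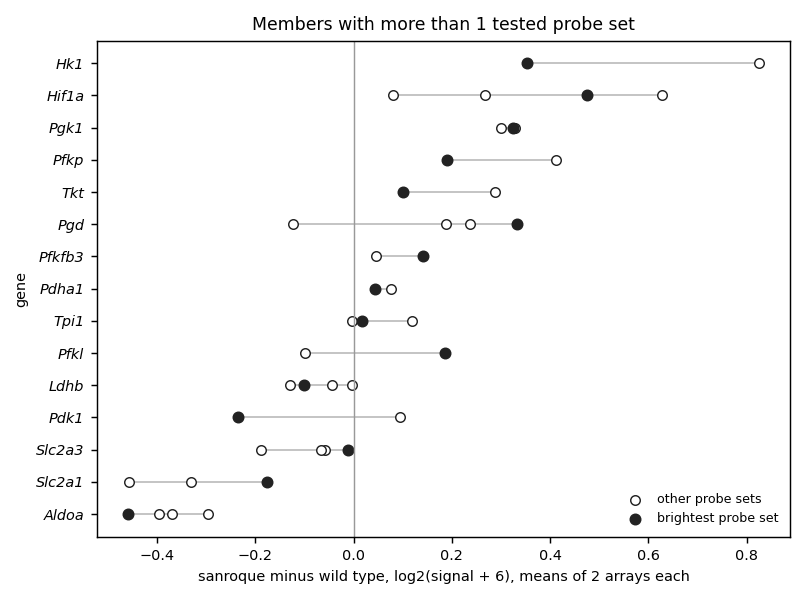
Difference between sanroque and wild type (x axis, log2(signal + 6), means of 2 arrays each) for the 15 members with more than 1 tested probe set (y axis); filled circles are the brightest probe set, open circles the others. In 11 of the 15 all probe sets share a sign, and the exceptions are Pdk1, Pfkl, Pgd and Tpi1.

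Among the 5 genes at the pyruvate entry point and of regulation, none passed by limma. An unadjusted p under 0.05 was seen for 1 of the 5, against 9.89% of all probe sets, and the median of the 5 was 0.14. Hif1a, the oxygen-regulated subunit of the transcription factor HIF-1, which switches on glycolytic genes and is itself controlled mainly through protein breakdown, stood out among them. It read 404.9 and 426.8 in wild type and 561.4 and 598.8 in sanroque, with a gap between the genotypes far wider than the spread within either. The difference was 0.47 (standard error 0.167, limma adjusted p = 0.345), 0.47 on day 1 and 0.48 on day 2, and with the day as a block it passed (adjusted p = 0.0432), against 3.59% of all probe sets called higher in that fit. Its other probe sets gave 0.63, 0.27 and 0.08, the first of these without overlap, at 68.2 and 38.8 against 78.8 and 87.6.

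Pyruvate dehydrogenase turns pyruvate into acetyl-CoA, and the kinase Pdk1 shuts it down. Pdk1 read 437.5 and 304.1 in wild type and 350.8 and 271.9 in sanroque, a difference of -0.24, while its other probe set had 0.09. The dehydrogenase subunit genes Pdha1 (446.5 and 472 against 395.2 and 566.4) and Pdhb (546.4 and 492.9 against 559.3 and 618.2) had 0.04 and 0.18. The sign of Pdha1 turned with median centring. Pfkfb3, which makes the allosteric activator of phosphofructokinase, read 52.5 and 44.9 against 52.8 and 55.6, a difference of 0.14 with an interval of -0.42 to 0.71.

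All 5 tested pentose phosphate genes had a small positive difference, on both days and under each scaling tried, but none passed by limma or at an unadjusted p of 0.05, nor with the day as a block. Their median was 0.17. The shared sign did not extend to related genes of the pathway. Rpe (167.6 and 170.4 against 150.2 and 145.6, -0.19) and H6pd (43.7 and 40.8 against 26.9 and 37.6, -0.35) read lower without overlap, and neither passed. Tktl1 (0.27) and G6pd2 (-0.22) were below the filter and overlapped between the genotypes. Pgd, which makes NADPH from 6-phosphogluconate, read 149.9 and 213.1 in wild type and 181.9 and 282.4 in sanroque, with both number 2 arrays high; its difference was 0.33 (limma adjusted p = 0.751), although 1 of its 4 probe sets had -0.12. The difference of Pgd was 0.024 without sanroque array 2 and 0.64 without sanroque array 1. Rpia, the ribose phosphate isomerase, read 214.4 and 189.1 against 249.1 and 249.5, without overlap, and had 0.30 (adjusted p = 0.655). The lactonase gene Pgls had 237.6 and 244.8 against 248.2 and 296.5 (0.17). Taldo1, the transaldolase, had 341.7 and 409 against 402.8 and 440.8 (0.17). Tkt, the transketolase, was nearly level at 807 and 852.5 against 872.4 and 907.3 (0.10), and its second probe set had 0.29, with no overlap in either.

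**Figure D4:**
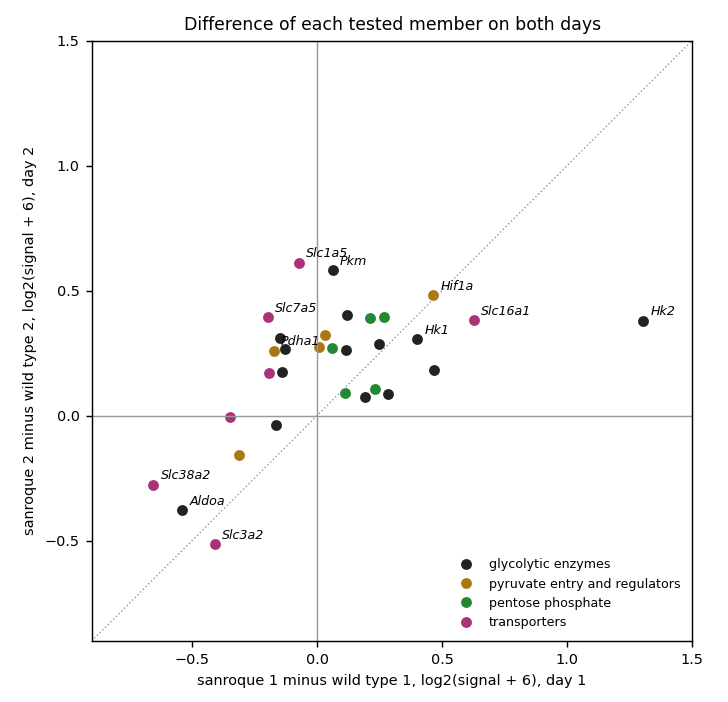
Difference between sanroque and wild type on day 1 (x axis, array 1 of each) and day 2 (y axis, array 2 of each), in log2(signal + 6), for the 31 tested members; colours give the role and the dotted line marks equal differences. Hif1a and Slc3a2 lie near the line, Hk2 differed more on day 1, and Slc1a5 and Slc7a5 have opposite signs on the 2 days.

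The 7 tested transporters split by sign, 3 positive and 4 negative, with a median of -0.01. None passed by limma, and 3 did at an unadjusted p of 0.05, against 9.89% of all probe sets. Slc2a1 and Slc2a3 encode the glucose transporters GLUT1 and GLUT3 of T cells. Slc2a1 read 201.5 and 180.9 in wild type and 157.2 and 180.1 in sanroque, a difference of -0.18 that came from day 1 (-0.35) and was -0.0062 on day 2. Its other probe sets had -0.46 (133.1 and 131.1 against 79.1 and 112.9) and -0.33, also without overlap. Slc2a3 read 387.6 and 297.3 against 338.4 and 335, a difference of -0.01 with an interval of -0.42 to 0.40. Neither glucose transporter gene passed under any alternative tried, and the interval of Slc2a1 ran from -0.59 to 0.23.

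Slc16a1, the lactate carrier MCT1, had the largest positive difference among the transporters. It read 93 and 112.6 in wild type and 146.9 and 148.4 in sanroque, where the sanroque arrays were almost equal and both above wild type. The difference was 0.50 (standard error 0.197, limma adjusted p = 0.409, 0.0808 with the day as a block). The other lactate carrier, Slc16a3, was dim in both genotypes, at 17.5 and 11.4 against 23.8 and 13.3.

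Slc3a2 and Slc38a2 read lower in sanroque. Slc3a2 encodes CD98, the heavy chain that carries the large neutral amino acid transporter of Slc7a5 to the surface. It read 407.6 and 421.5 in wild type and 305.2 and 293.2 in sanroque, a difference of -0.46 (standard error 0.168, limma adjusted p = 0.364, 0.058 with the day as a block), with -0.41 on day 1 and -0.51 on day 2. Slc38a2, the glutamine and alanine carrier SNAT2, which amino acid shortage induces, read 515.6 and 418.8 against 325.3 and 344.6, a difference of -0.47 (standard error 0.179, adjusted p = 0.401, 0.06 with the day as a block). For both genes each sanroque value lay below each wild type value.

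Slc7a5, the partner of CD98, did not follow it, with 48.4 and 54.2 in wild type and 41.5 and 73.1 in sanroque, -0.20 on day 1 and 0.39 on day 2. Slc1a5, the glutamine carrier ASCT2, read 262.1 and 158.6 against 249.1 and 245.5, where wild type array 2 alone was low, and had -0.07 on day 1 and 0.61 on day 2. In both carriers the arrays of 1 genotype lay farther apart than the means of the genotypes. Slc7a1, the arginine and lysine carrier, lay below the filter at 17.7 and 20.1 against 25.4 and 17.7.

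**Figure D5:**
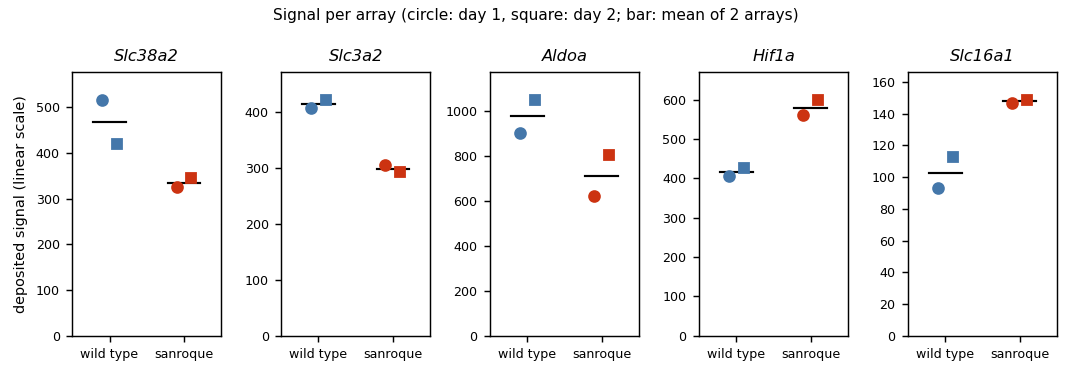
Deposited signal (y axis, linear, from 0) on each array of wild type (blue) and sanroque (red) for the 5 members with an unadjusted p under 0.05; circles are day 1, squares day 2 and bars the mean of 2 arrays. Slc38a2, Slc3a2 and Aldoa are lower and Hif1a and Slc16a1 higher in sanroque without overlap, and none passed after adjustment over all probe sets.

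A list of 65 further genes of the same pathways, their isozymes, carriers and regulators was read in the same way. Of these 49 had a probe set of their own and 29 were tested. None passed by limma, and 2 did at an unadjusted p of 0.05, against 9.89% of all probe sets. With the day as a block 1 was called higher and 1 lower, against 3.59% and 2.69% of all probe sets. Bpgm, which makes the bisphosphoglycerate that loosens oxygen from haemoglobin in red cells, read 282.8 and 430.1 in wild type and 618.7 and 620.6 in sanroque, a difference of 0.82 (standard error 0.21, limma adjusted p = 0.126, 0.000634 with the block). The red cell genes Alas2 (0.63), Slc4a1 (0.72) and Car2 (0.57) read higher alongside, without overlap, and passed with the block though not without it. Epb42 (-0.14) and Hba-a1 (0.66) of the same list were dim, below the filter, and overlapped between the genotypes. The part of red cell genes in the value of Bpgm was not tested. Myc, which drives glycolytic and amino acid transport genes in activated T cells, read 289.7 and 251.6 against 201.8 and 174.1, a difference of -0.51 (adjusted p = 0.358, 0.0441 with the block). Of the 29, 4 read higher and 9 lower without overlap, against 20.9% and 17.7% of all tested probe sets. After Bpgm and Myc the largest differences among these were those of the phosphoglucomutase Pgm1 (0.38), H6pd of the endoplasmic reticulum (-0.35), the pyruvate carrier subunit Mpc1 (-0.31) and the HIF-1 partner Arnt (0.29), with limma adjusted p of 0.625 to 0.823. The median of the 29 was -0.02.

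The promoters of many members share a short word. HIF-1 binds DNA around the core ACGTG, and this word was searched on both strands in the 250 bases before each RefSeq start site (build GRCm38.p6), where a palindromic CACGTG counts as a match on each strand. Of the 36 members listed with a promoter, 15 (41.7%) held it in at least 1 window, against 18.5% of all 27025 genes listed there and 25.7% of the 6415 among them that were tested on the arrays. By role it was 8 of 19 glycolytic enzymes, 3 of 5 genes of pyruvate entry and regulation, 0 of 6 pentose phosphate genes and 4 of 6 transporters. The word holds a CG pair, so its share moves with base composition, which was not matched here, and a match is not a bound site. The following windows are shown because Ldha held the most matches, 5, and because Hif1a, Slc16a1, Aldoa and Slc3a2 are the members with an unadjusted p under 0.05 that held any; Slc38a2 held none. Capitals mark the core on either strand. Ldha is at chr7:46845554-46845803 on the plus strand, Hif1a at chr12:73907617-73907866 plus, Slc16a1 at chr3:104638414-104638663 plus, Aldoa at chr7:126799179-126799428 minus and Slc3a2 at chr19:8713898-8714147 minus, each printed 5′ to 3′ toward the gene.
Ldha: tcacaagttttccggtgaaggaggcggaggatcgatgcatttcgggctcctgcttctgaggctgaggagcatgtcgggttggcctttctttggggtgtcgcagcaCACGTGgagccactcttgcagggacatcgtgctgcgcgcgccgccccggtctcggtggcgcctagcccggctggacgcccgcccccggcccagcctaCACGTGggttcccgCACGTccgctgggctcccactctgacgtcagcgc
Hif1a: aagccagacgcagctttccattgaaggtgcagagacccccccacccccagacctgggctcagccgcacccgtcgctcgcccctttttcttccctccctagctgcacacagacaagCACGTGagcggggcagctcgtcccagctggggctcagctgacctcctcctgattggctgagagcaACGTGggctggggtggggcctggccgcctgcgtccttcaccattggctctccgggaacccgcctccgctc
Slc16a1: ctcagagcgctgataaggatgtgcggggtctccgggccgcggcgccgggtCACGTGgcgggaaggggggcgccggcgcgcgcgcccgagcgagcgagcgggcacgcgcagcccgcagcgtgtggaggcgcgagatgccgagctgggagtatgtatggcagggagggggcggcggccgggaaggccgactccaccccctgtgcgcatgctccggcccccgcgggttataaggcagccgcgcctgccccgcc
Aldoa: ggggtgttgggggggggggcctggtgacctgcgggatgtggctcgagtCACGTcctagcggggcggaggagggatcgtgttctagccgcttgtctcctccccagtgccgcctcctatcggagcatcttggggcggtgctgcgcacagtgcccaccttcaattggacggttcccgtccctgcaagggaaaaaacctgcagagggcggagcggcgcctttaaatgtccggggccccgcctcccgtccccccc
Slc3a2: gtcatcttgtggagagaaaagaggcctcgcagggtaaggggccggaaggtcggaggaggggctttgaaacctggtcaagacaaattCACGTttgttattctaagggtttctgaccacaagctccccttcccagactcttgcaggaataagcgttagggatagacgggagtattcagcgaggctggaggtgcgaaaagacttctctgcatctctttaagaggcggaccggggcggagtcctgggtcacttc
Members with and without the word had similar signs. Of the 13 tested members that held it 10 were positive and 3 negative, with a median difference of 0.18. Of the 15 that did not, 12 were positive and 3 negative, with a median of 0.17. Among the 5 promoters shown, Hif1a and Slc16a1 belong to genes that read higher in sanroque, Aldoa and Slc3a2 to genes that read lower, and Ldha to a gene that was nearly level.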

How the data were processed

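RNA of CD4 cells was measured on 4 Affymetrix arrays, of type MOE430A per the file headers. The deposited table holds 1 linear intensity per probe set and array, 22690 in all; the summary algorithm is not given in the sources used here. Trimmed means (2% to 98%) near 100 show that arrays were scaled before deposit, and no scaling was added. Symbols came from the platform annotation, where 20380 probe sets other than controls had 1 symbol, 691 several and 1555 none; all 20351 gene identifiers found in the RefSeq table had the same symbol there.

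Signals were analysed as log2(signal + 6), 6 being the rounded 20th percentile. Left out were 64 control probe sets, and all others whose mean was under the 40th percentile (21.3). The genotypes were compared in limma 3.58.1 (R 4.3.3) with lmFit and eBayes, using a variance trend, two-sided, adjusted over all 13580 probe sets, at 0.05, without covariates; the fit was tested on simulated data. Deviations of same-numbered arrays, which share a hybridisation day per the file headers, correlated with 0.392 over 13580 probe sets, so the number was used as a block in an alternative fit. With 2 arrays per genotype the 2 pairs mirror each other, so this is 1 value and not 2. Alternatives were quantile normalization, median centring, pseudocounts of 1 and 24, no variance trend, no filter, a 60th percentile filter, a member's mean over its probe sets, each array left out and, chosen after seeing the data, the Gapdh controls in the fit. All members were named, with related genes past the test or among the 6 largest differences without overlap, Cd4, and other probe sets of a member that differ in sign. Markers, probe sets and related genes outside this rule were named with their values known. The members and lists were chosen with earlier results of these data known. Plots used Python 3.11.15 and matplotlib 3.10.9.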

Additional observations from a re-analysis of the deposited data

How the results depend on the processing

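No member passed under any of the 14 alternatives except the replicate block, which called 2, Hif1a and Aldoa; it changed no other call among the brightest probe sets of members and leaves 1 residual degree of freedom. Over all probe sets 144 passed, 853 with the replicate block, 56 without the filter and 47 without the variance trend, and 109 to 358 when an array was left out (358 without wild type array 1). In such fits the lone array of a genotype is assumed to vary like the others. The median difference of the glycolytic enzymes, 0.19, was 0.057 to 0.20 with an array left out (0.057 without sanroque array 2); the medians of the other roles moved by less than the spread between arrays, but they too shifted: with an array left out that of the transporters, -0.01, ran from -0.27 (without sanroque array 2) to 0.026, that of the pentose phosphate genes, 0.17, from 0.072 to 0.29 and that of pyruvate entry and regulators, 0.14, from 0.083 to 0.25. Without the filter the transporter median was 0.099. Of 399 differences of members under alternatives, 17 had the opposite sign, in 10 members. Under quantile normalization Aldoc had -0.066. With median centring Aldoc had -0.021, Tpi1 -0.073, Pgam1 -0.0095 and Pdha1 -0.047. With an array left out Pfkm ranged from -0.0499 to 0.57, Aldoc from -0.099 to 0.24, Tpi1 from -0.088 to 0.12, Pgam1 from -0.066 to 0.23, Ldhb from -0.22 to 0.0195, Pdk1 from -0.49 to 0.022, Pdha1 from -0.21 to 0.30, Slc2a3 from -0.20 to 0.18, Slc7a5 from -0.27 to 0.47 and Slc1a5 from -0.082 to 0.62. Without a change of sign, Hk2 ranged from 0.49 to 1.19, Pfkl from 0.09 to 0.28, Ldha from 0.029 to 0.24, Taldo1 from 0.042 to 0.30, Pgls from 0.04 to 0.29, Slc2a1 from -0.27 to -0.082 and Slc38a2 from -0.61 to -0.32. The cause of these shifts was not tested. The adjusted p over alternatives ran from 0.0432 to 0.923 for Hif1a and from 0.0454 to 1 for Aldoa. The number of arrays limits the precision, and dim members such as Hk2 and Aldoc have the widest intervals.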
